A study of Mus musculus with 1152 samples.

Results

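Nitric oxide and cyclic GMP (cGMP) signalling was represented by 7 genes, chosen by name from the table of 23168 genes and followed over every cell of that table. They were Nos3, Cav1 and Ddah2, which act in the making of nitric oxide, Gucy1a3 and Gucy1b3, which encode the subunits of its receptor, and Prkg1 and Pde5a, which act on cGMP. The genes had been picked with their levels in these cells known, so all values below are descriptions and carry no test.

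The cells were lymphatic endothelial cells (LECs) sorted as CD31+ PDPN+ from the nasopharyngeal mucosa of aged C57BL/6 mice, with no treatment or other genotype. Tissue had been pooled, each cell was made into its own Smart-seq3 library (a plate-based, full-length method), and no label named the mouse of a cell. The cells followed were 56.9% of those labelled, the others were not analysed here, and they formed 1 pooled sample without replicates. Intervals are exact (Clopper-Pearson) 95% binomial intervals and cover counting error only, not differences between mice. The LEC genes Prox1, Flt4, Pdpn, Lyve1, Cdh5, Pecam1, Mmrn1 and Ccl21a were each detected in 87.7 to 100% of cells.

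In the vessel wall, endothelial nitric oxide synthase, the product of Nos3, makes nitric oxide from arginine with tetrahydrobiopterin as a cofactor. Nitric oxide binds the haem of soluble guanylate cyclase, a heterodimer of an alpha and a beta subunit, which then makes cGMP. The kinase encoded by Prkg1 responds to cGMP, and phosphodiesterases such as that of Pde5a break it down. In collecting lymphatics, nitric oxide from the endothelium is known for relaxing the surrounding smooth muscle, the cell type in which the cyclase, the kinase and Pde5a are usually described.

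The cyclase genes are neighbours. Gucy1a3 (listed in current annotation as Gucy1a1) lies on the minus strand at chr3:82092427-82145789 and Gucy1b3 (Gucy1b1) on the same strand at chr3:82032006-82074689, in build GRCm38. A gap of 17737 bases with 0 annotated genes in between separates them. Because their levels moved together across the LECs, as described below, the bases before a RefSeq start site that overlap no annotated exon are shown for each gene (GRCm38.p6, minus strand, 5′ to 3′). The window of Gucy1a3, chr3:82145074-82145262, lies inside the gene ahead of one of its alternative starts, and that of Gucy1b3 is chr3:82074712-82074900. Capitals mark matches to the GC box (GGGCGG) or the CCAAT box (CCAAT) on either strand.
Gucy1a3: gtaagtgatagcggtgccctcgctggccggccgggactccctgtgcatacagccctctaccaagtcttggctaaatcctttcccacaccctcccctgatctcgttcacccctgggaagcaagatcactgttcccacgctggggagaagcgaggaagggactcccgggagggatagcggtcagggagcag
Gucy1b3: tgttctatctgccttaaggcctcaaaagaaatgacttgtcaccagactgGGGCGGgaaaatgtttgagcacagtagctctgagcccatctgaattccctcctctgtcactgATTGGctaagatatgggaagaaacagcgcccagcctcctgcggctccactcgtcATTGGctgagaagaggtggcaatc

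The Gucy1b3 window held 1 GC box and 2 CCAAT boxes, both of the latter on the opposite strand (ATTGG). The Gucy1a3 window held 0 matches to either motif, and 0 to a TATA box (TATAAA), an AP-1 site (TGANTCA) or an E box (CANNTG). Among 32851 RefSeq promoter windows of the same length, 30.6% held the GC box, 28.3% the CCAAT box, 9.37% the TATA box, 5.19% the AP-1 site and 55.9% the E box. Of these last 3 motifs the Gucy1b3 window held 1 E box, which is not capitalised. The G and C content was 61.4% for Gucy1a3 and 51.3% for Gucy1b3, against a median of 52.9%. A match of letters does not show that a factor binds there.

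Nos3 transcripts were found in 59.9% of the LECs (interval 56.04 to 63.7%). Its level per cell, given throughout as the natural log of 1 plus reads per 10000, had a lowest value of 0, a median of 0.15 and a highest value of 2.41, with a mean of 0.49 ± 0.62 (SD over cells). Nos3 lies at chr5:24364810-24384474 on the plus strand, and its exons overlap those of Atg9b and Gm15587 on the opposite strand. Whether reads were counted by strand is not stated, so reads of these genes cannot be told apart with certainty. The other synthase genes were rare, with Nos2 in 7.47% of cells and Nos1 in 0.457%.

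Cav1, which encodes the caveolar coat protein that binds and restrains the synthase, was found in 98.5% of cells (97.2 to 99.3%). Its level ran from 0 to 3.97 with a median of 2.30 and a mean of 2.13 ± 0.89, and it was the only one of the 7 genes that nearly every cell carried. Other genes of caveolae were also found in most cells, with Cavin2 in 100% of cells, Cavin1 in 97.1%, Cav2 in 91.9% and Cavin3 in 85.7%. Cav1 lies at chr6:17306335-17341452 on the plus strand.

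Ddah2, which encodes an enzyme that removes methylarginines, the natural inhibitors of the synthase, was found in 43.9% of cells (40.1 to 47.8%). Its median was 0, its highest value 2.99 and its mean 0.39 ± 0.61. The related Ddah1 was found in 34.1% of cells. Ddah2 lies at chr17:35059035-35062095 on the plus strand.

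The alpha subunit gene Gucy1a3 was found in 42.4% of cells (38.6 to 46.3%), and the beta subunit gene Gucy1b3 in 46.95% (43.1 to 50.9%). Both had a lowest value and a median of 0. The highest value was 2.72 for Gucy1a3 and 3.09 for Gucy1b3, and the means were 0.32 ± 0.56 and 0.38 ± 0.63. The alternative subunit genes were scarce, with Gucy1a2 in 8.08% of cells and Gucy1b2 in 0.305%.

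Prkg1 was found in 32.5% of cells (28.9 to 36.2%), at a median of 0, a highest value of 2.27 and a mean of 0.13 ± 0.29. It is a very long gene, 1200545 bases at chr19:30564489-31765033 on the minus strand. Pde5a was found in only 5 cells, 0.762% (0.248 to 1.77%), with 29 reads in all and a highest value of 0.86. Its locus, chr3:122728947-122859374 on the plus strand, overlaps exons of 4930447N08Rik on the other strand. The plot of levels per cell shows the 3 patterns side by side: Cav1 high in nearly all cells, 5 genes with many cells at 0 and a tail of positive cells, and Pde5a almost absent.

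**Figure D1:**
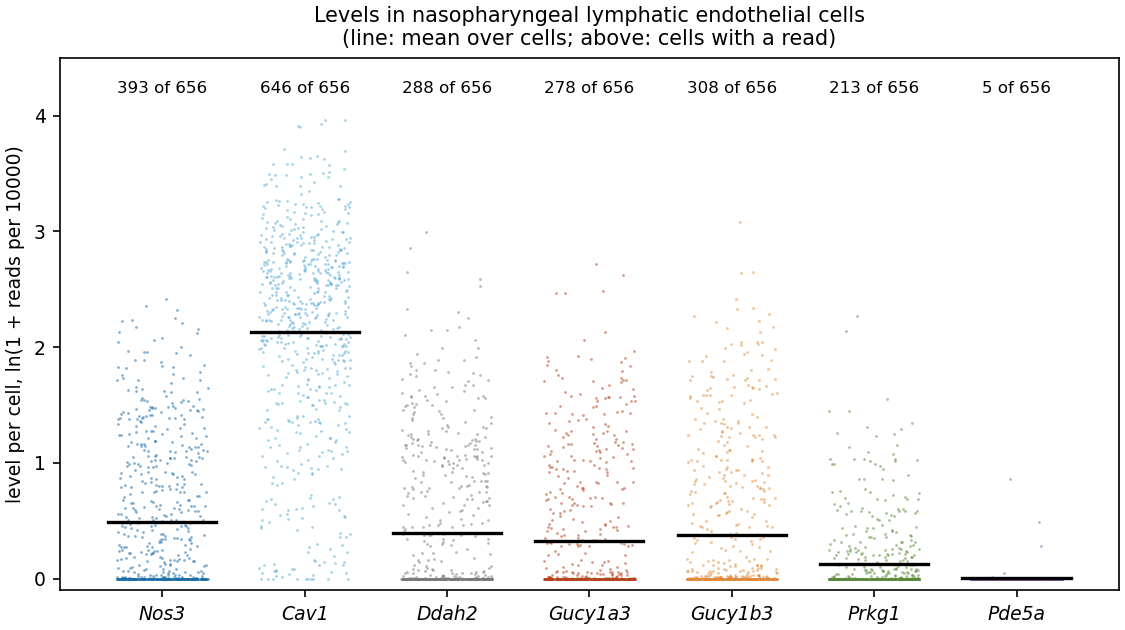
Level of each of the 7 genes in each cell. The vertical axis is the natural log of 1 plus reads per 10000, points are cells spread sideways for visibility, black lines are means over cells, and the counts above are cells with at least 1 read. Cav1 has a mean of 2.13, Nos3 0.49, and Pde5a is above 0 in 5 cells.

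Levels of different genes can be set beside each other only per length of transcript. Per kilobase of exon, the linear mean in reads per 10000 was 3.08 for Cav1, 0.565 for Ddah2, 0.254 for Nos3, 0.231 for Gucy1b3, 0.102 for Gucy1a3 and 0.019 for Prkg1. Cav1 stood at the 98.96th percentile of 20344 genes on this scale, Ddah2 at the 95.1st, Nos3 at the 90.5th, Gucy1b3 at the 89.7th, Gucy1a3 at the 80.2nd, Prkg1 at the 50.7th and Pde5a at the 6.49th. Nos3 and Gucy1b3 could not be ordered, since with the longest transcript as the length Gucy1b3 came to 0.281 and Nos3 stayed at 0.254.

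Detection depended on depth, which ran from 7046 to 10727631 reads per cell with a median of 148202.5. With the cells split into 3 equal sets by depth, Prkg1 was found in 20.1% of the shallowest set, 28.9% of the middle set and 48.4% of the deepest. Gucy1b3 went from 35.2% to 40.4% and 65.3%, and Nos3 from 50.2% to 61.9% and 67.6%. Gucy1a3 did not climb steadily, at 36.99%, 34.4% and 55.7%. To hold depth equal, each cell was thinned to 20000 reads and 88 shallower cells were left out. At this depth Cav1 was found in 94.01% of cells, Nos3 in 45.2%, Ddah2 in 33.8%, Gucy1b3 in 30.3%, Gucy1a3 in 28.5%, Prkg1 in 16.4% and Pde5a in 0.528%. The order of the 7 genes by detection differed from that without thinning only for Ddah2, which stood below Gucy1b3 before and above it after. The intervals of Ddah2, Gucy1b3 and Gucy1a3 overlapped at both depths.

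Because the cyclase, the kinase and Pde5a are typical of smooth muscle, transcripts of mural cells (smooth muscle cells and pericytes) were examined beside them. Of the 11 mural genes in the table, Kcnj8 was found in 46.2% of cells and Abcc9 in 8.69%. The other 9 were each found in at most 3.51% of cells, the share for Acta2, with Myh11 in 0.610%, Rgs5 in 0.915%, Pdgfrb in 1.07% and Notch3 in 0 cells, with an interval up to 0.561% (3 cells would make 0.457%). Any of these 9 genes was found in 58 cells. Gucy1a3 was found in 50% of those cells (36.6 to 63.4%) and in 41.6% of the cells without such a read (37.7 to 45.7%). Gucy1b3 was found in 60.3% (46.6 to 72.95%) and 45.7% (41.6 to 49.7%), and Nos3 in 55.2% (41.5 to 68.3%) and 60.4% (56.3 to 64.3%). Prkg1 was found in 37.9% (25.5 to 51.6%) and 31.9% (28.2 to 35.8%), and Pde5a in 1.72% and 0.669%. The cyclase genes, Prkg1 and Pde5a thus all had the higher share in cells with a mural read. These shares use all reads, so depth was not held equal. The intervals of the 2 sets of cells overlapped for each gene, which does not show that the shares were equal. A link to mural reads was not tested.

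The enzyme needs both subunits, so their joint detection was counted. Both genes were found in 27.9% of cells (24.5 to 31.5%) and neither in 38.6%. At 20000 reads per cell, both were found in 99 cells, 17.4% of those kept (14.4 to 20.8%). There, Gucy1b3 was found in 61.1% of cells with Gucy1a3 (53.1 to 68.7%) and in 17.98% of cells without it (14.4 to 22.1%). Across the thinned cells, the Spearman rho of Gucy1a3 with Gucy1b3 was 0.46, the highest of Gucy1a3 with any of 5002 genes found in at least 20% of these cells, and likewise the highest of Gucy1b3. With the mean of each cluster removed, rho over all cells was 0.32, against 0.42 before. All cells came from 1 pool, so these coefficients have no p-value. Counted over the 7 genes with all reads, the most common number found in a cell was 3, in 28.5% of cells. A further 5.34% had 6 of them, 0 cells had all 7, and 2 cells had none.

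The next closest genes to the cyclase pair were the same for both subunits. Tppp3, which encodes a tubulin-binding protein, had a rho of 0.41 with Gucy1a3 and 0.44 with Gucy1b3, and Fndc1, a marker of Ptx3- capillary LECs, had 0.40 and 0.45. The synthase had other companions. The genes most like Nos3 were Clca3a1 (0.42), Parm1 (0.39) and Bcam (0.35), while its rho was 0.04 with Gucy1a3 and 0.01 with Gucy1b3. Cav1 was most like Vim (0.49), which encodes the intermediate filament vimentin, followed by Serpine2 (0.42) and Cd9 (0.41), and had a rho of 0.29 with Nos3. For the remaining genes the highest coefficients were weak, at 0.18 for Ddah2 with Zfp36l1 and 0.19 for Prkg1 with Fosb, an immediate early gene. Over all cells, Prkg1 also had a rho of 0.19 with a score of dissociation genes and 0.20 with total reads, and the part of either in its levels was not tested.

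To see in which LECs the genes lay, the cells were clustered by the steps of the study without any gene of the pathway among the clustering genes. Genes that vary with the members still shaped the clusters, so cluster values are descriptions. The cells fell into 6 clusters. Cluster 1 (28.7% of cells; led by Gm525, Gpx3 and Stab2) was Ptx3+ capillary-like by its markers Ptx3, Stab2, Mrc1 and Itih5. Cluster 2 (25.5%; Ahsg, Spp1, Apoe) was precollecting-like by Foxp2, Apoe and Bmp4, although the class marker Lyve1 was raised in cluster 3 instead. Cluster 3 (16.9%; Tppp3, Slc4a11, Fbln7) was Ptx3- capillary-like by Fndc1, Reln and Ccl21a, although the class marker Ptn was raised in cluster 4 instead. Clusters 4 (13.1%; Pthlh, Ptn, Anxa3), 5 (10.5%; Fxyd2, Gdf15, Gdf10) and 6 (5.34%; Rsad2, Ifit3, Gbp4) reached the minimum of 3 raised markers for no class and were left without a name. In cluster 5, Cldn11, a marker of both valve classes, and the downstream-valve marker Gata2 were raised. The downstream-valve markers Gja4 and Foxc2 were not raised there. Gja4, by which the study told downstream from upstream valve cells, was raised in cluster 2 instead. Cluster 6 was led by interferon-response genes. In cluster 1, Plvap, Selp and Aqp1 of the 10 blood endothelial markers were raised as well. So were the mural markers Kcnj8 and Abcc9, the fibroblast markers Dcn and Col3a1 and the haematopoietic marker Fcer1g. Blood endothelial markers were also raised in clusters 2 (Emcn, Vwf), 3 (Gpihbp1), 4 (Vwf) and 6 (Plvap, Vwf), and Dcn in cluster 4. Names were rebuilt from markers and need not mark the cells the study named. Median reads per cell ran from 73757 in cluster 4 to 204674 in cluster 2, so detection by cluster is given at 20000 reads.

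Nos3 was concentrated in clusters 2, 4 and 5. At 20000 reads it was found in 67.8% of cluster 2 (59.6 to 75.2%), 72.6% of cluster 4 (60.9 to 82.4%) and 61.3% of cluster 5 (48.1 to 73.4%), 3 shares whose intervals overlapped. Cluster 1 had 17.7% (12.2 to 24.4%) and cluster 3 26.1% (17.5 to 36.3%), both below all of the former intervals. Cluster 6 lay between at 42.9% (24.5 to 62.8%). The mean level was 0.81 in cluster 2, 0.80 in cluster 4 and 0.73 in cluster 5, against 0.14 in cluster 1, 0.23 in cluster 3 and 0.41 in cluster 6.

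The cyclase subunits were concentrated elsewhere, in cluster 3. In this Ptx3- capillary-like cluster, Gucy1a3 was found in 68.5% (57.96 to 77.8%) and Gucy1b3 in 73.9% (63.7 to 82.5%). Each was found in 9.76% (5.68 to 15.4%) of cluster 1. Gucy1a3 had 26.8% in cluster 2, 32.9% in cluster 4, 12.9% in cluster 5 and 39.3% in cluster 6, and Gucy1b3 had 26.8%, 41.1%, 20.97% and 17.9% in the same clusters. The mean level in cluster 3 was 0.89 for Gucy1a3 and 1.03 for Gucy1b3, against at most 0.38 and 0.46 in any other cluster, both in cluster 4. On the linear scale with 0.1 per 10000 reads added, cluster 3 was 4.61-fold above all other cells for Gucy1a3 and 4.45-fold for Gucy1b3, and 0.394-fold for Nos3. A read of the 9 mural genes without Kcnj8 and Abcc9 was found in 9.91% of cluster 3 and 8.14 to 9.04% of the other clusters, and their summed level was 0.058 per 10000 reads in cluster 3, against 0.030 to 0.780 elsewhere with the highest in cluster 1.

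Synthase and cyclase thus peaked in different LEC clusters. At 20000 reads, both subunits were found together in 54.3% of cluster 3 (43.6 to 64.8%), 19.2% of cluster 4, 14.3% of cluster 6, 14.1% of cluster 2, 6.45% of cluster 5 and 3.66% of cluster 1. Cells of cluster 3 with both subunits and no Nos3 read made up 40.2% (30.1 to 50.96%), and those with all 3 transcripts 14.1% (7.74 to 22.95%). In cluster 2 the corresponding shares were 4.70% and 9.40%, and 58.4% of its cells (50.04 to 66.4%) had Nos3 without the subunit pair. Cluster 4 had 4.11% and 15.1% (7.77 to 25.4%), the latter the highest share with all 3 transcripts in any cluster. The joint shares come from the same reads as the shares by gene and are no separate evidence of the pattern. In cluster 1, 80.5% of cells (73.6 to 86.3%) had neither Nos3 nor the pair. Over all cells with all reads, Nos3 and both subunits were found in 17.8%, and with Prkg1 as well in 52 cells, 7.93%. At 20000 reads these shares were 8.10% and 0.880%, the latter from 5 cells.

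**Figure D2:**
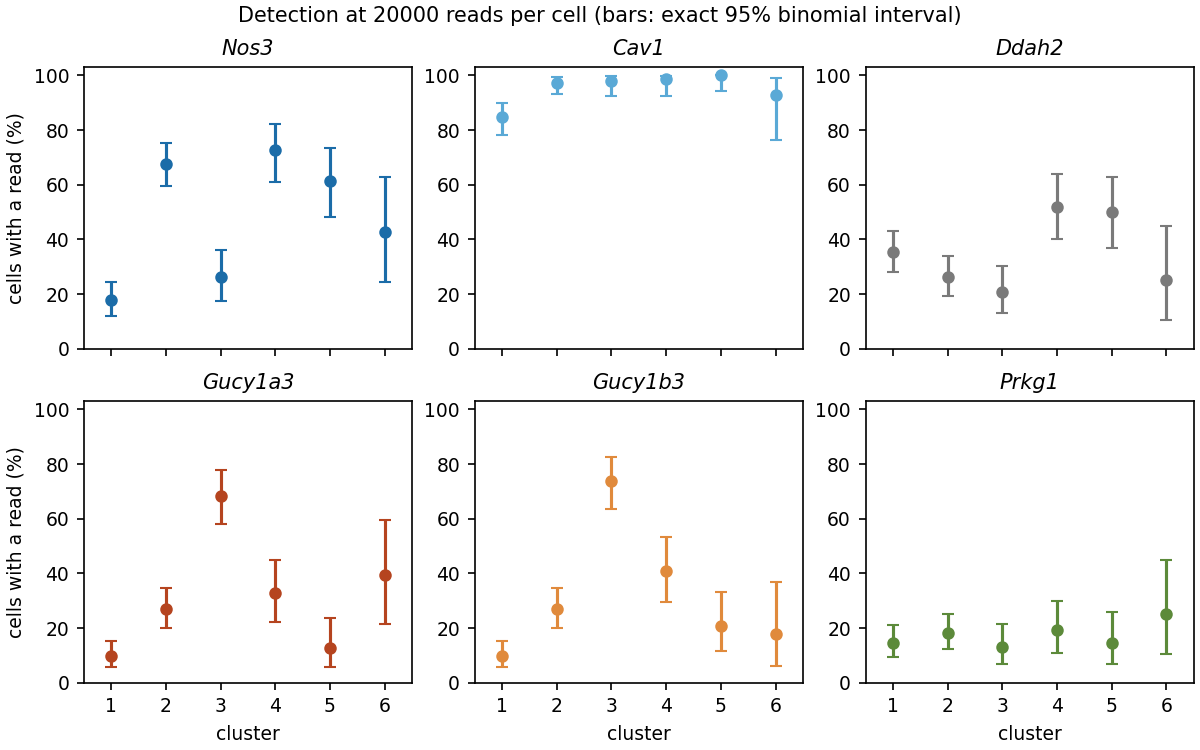
Share of cells with at least 1 read of each gene in each of the 6 clusters, with every cell thinned to 20000 reads. The vertical axis is in percent, points are shares and bars are exact 95% binomial intervals. Nos3 is highest in clusters 2, 4 and 5, at 61.3 to 72.6%, whereas Gucy1a3 and Gucy1b3 are highest in cluster 3, at 68.5% and 73.9%.

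The remaining genes followed neither pattern. Cav1 was lowest in cluster 1, with a mean level of 1.49, next lowest in cluster 6 at 1.77, and between 2.38 and 2.6 in the others. Ddah2 was found in 52.1% of cluster 4 (40.04 to 63.9%) and 50% of cluster 5 (37.02 to 62.98%) but in 20.7% of cluster 3 (12.9 to 30.4%). Its mean level was 0.60, 0.56 and 0.19 there. Prkg1 varied little, at 13.04 to 25% of each cluster, and all 6 intervals overlapped. The reads of Pde5a came from clusters 1, 2 and 5.

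These differences were set beside those of all 9666 genes found in at least 10% of cells, a filter that 6 of the 7 genes passed and Pde5a did not. In cluster 1, Nos3, Gucy1a3, Gucy1b3 and Cav1 were at least 1.5-fold lower than in all other cells, as were 5.52% of all genes, and 0 of the 6 were higher, against 5.5%. In cluster 2, Nos3 was higher, against 3.21% of genes, and Gucy1b3 lower, against 6.51%. In cluster 3, Gucy1a3 and Gucy1b3 were higher, against 4.59%, and Nos3 and Ddah2 lower, against 7.99%. In cluster 4, Nos3 and Cav1 were higher, against 4.38%, and 0 lower, against 5.68%. In cluster 5, Nos3 and Ddah2 were higher, against 6.8%, and Gucy1a3 and Gucy1b3 lower, against 11.6%. Ddah2 lay at the threshold, at 1.501-fold in cluster 5 and 1.485-fold in cluster 4, so its call does not set these clusters apart. In cluster 6, where 10.6% of genes were higher and 15.4% lower, 0 of the 6 were higher and Gucy1b3, Cav1 and Ddah2 were lower. The 4.61-fold and 4.45-fold differences of the cyclase genes in cluster 3 stood at the 99.9th percentile of genes, and that of Nos3 in cluster 2, 2.16-fold, at the 99.4th.

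As the titles number the cells, 12 blocks of 96 consecutive numbers were compared as a guard against values carried by a few wells. The labels do not say that such a block was a plate. Blocks held 18 to 83 analysed cells. In 12 of 12 blocks Gucy1a3 and Gucy1b3 were higher in cluster 3 than in other cells, with block means of 0.58 to 1.54 in cluster 3 against 0.09 to 0.43 elsewhere for Gucy1a3, and 0.83 to 2.41 against 0.11 to 0.47 for Gucy1b3. Nos3 was higher in clusters 2, 4 and 5 than in clusters 1 and 3 in 12 of 12 blocks, at 0.47 to 0.98 against 0.00 to 0.25. The clusters compared, with cluster 6 left out for Nos3, follow the levels in these same cells. The agreement of blocks is thus a description of spread and no independent test. Nos3 in cluster 3 alone was lower than in all other cells in 11 of 12 blocks. In the exception, block 10, cluster 3 had 3 cells. It had as few or fewer in blocks 8, 9 and 11, at 2, 2 and 3 cells, which count among the 11. The highest Gucy1b3 block mean in cluster 3, 2.41, came from block 9. In blocks 1 to 5, the mean level of Nos3 was 0.20 in cluster 3 and 0.64 in other cells, and in blocks 6 to 12, which held 27 cells of cluster 3, the means were 0.33 and 0.44.

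**Figure D3:**
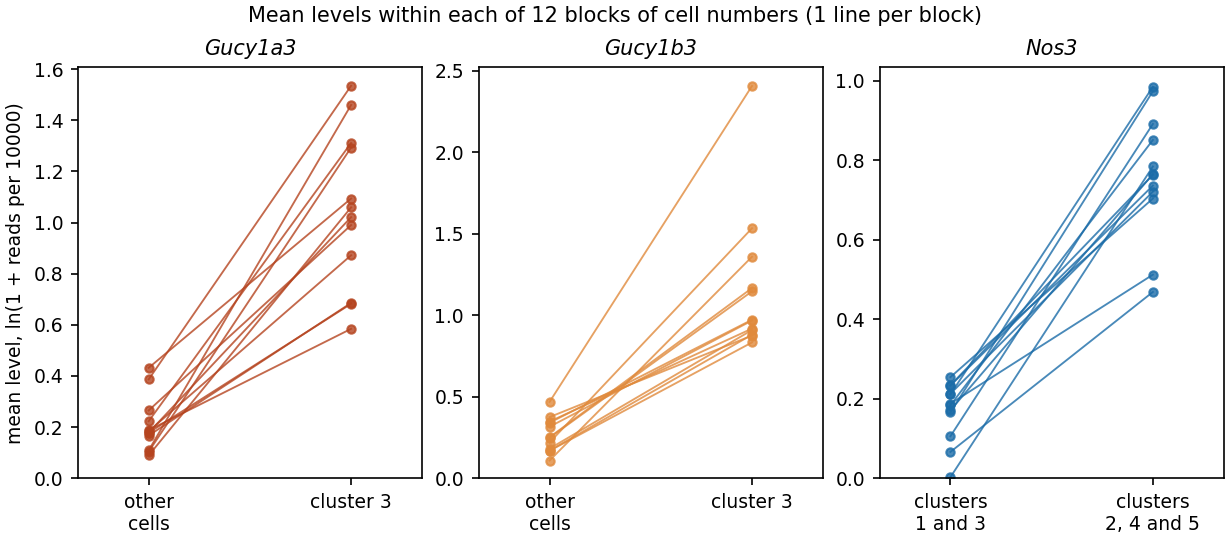
Mean level of Gucy1a3, Gucy1b3 and Nos3 within each of 12 blocks of 96 cell numbers, as the natural log of 1 plus reads per 10000, with 1 line per block. Each line joins 2 sets of cells of the same block, and every line rises. The cyclase genes rise from other cells to cluster 3, and Nos3 from clusters 1 and 3 to clusters 2, 4 and 5. The sets follow the levels in these same cells.

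Genes with known roles around the 7 were taken from lists drawn up by role. Of 65 such genes in the table, 39 were found in at least 10% of cells and 22 in at least 50%, against 9666 and 2724 of all 23168 genes. Partners of the synthase were the most widespread, with Hsp90ab1, a chaperone gene, in 100% of cells and Akt1, a kinase that phosphorylates the synthase, in 63.3%. Nostrin, which encodes a trafficking partner, was found in 0.610%.

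Supply of substrate and cofactor was uneven. The arginine transporter gene Slc7a1 was found in 46.3% of cells, and Ass1 and Asl, whose enzymes regenerate arginine from citrulline, in 15.4% and 27.3%. Ass1 and Ddah1 were at least 1.5-fold higher in clusters 2 and 4, the only 2 of the 39 genes higher in either, and lower in clusters 1, 5 and 6. Of all 9666 genes, 3.21% were higher in cluster 2 and 4.38% in cluster 4, so 2 in 39 is near that share. Those lower made up 5.52% in cluster 1, 11.6% in cluster 5 and 15.4% in cluster 6. The mean level of Ass1 was 0.19 in cluster 2 and 0.27 in cluster 4 against 0.03 to 0.08 in the others, and that of Ddah1 was 0.35 and 0.42 against 0.07 to 0.25. Cluster 5, where Nos3 was also high, had the lowest levels of both. Of the genes for tetrahydrobiopterin, Gch1, whose enzyme makes the first committed step, was found in 13.7% of cells, Spr in 52.6% and Qdpr, which recycles the cofactor, in 61.3%.

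The membrane guanylate cyclases, which make cGMP in response to natriuretic peptides, were found in more cells than the soluble one. Npr1 was found in 66.8% of cells and Npr2 in 63.9%. Per kilobase of exon the order was not the same. Npr2 came to 0.333 and Npr1 to 0.210, against 0.231 for Gucy1b3 and 0.102 for Gucy1a3. Npr1 was at least 1.5-fold higher in cluster 1, where Nos3 and both soluble subunits were lowest, with a mean level of 0.64 there, 0.59 in cluster 4, 0.55 in cluster 6, 0.48 in cluster 3, 0.42 in cluster 2 and 0.23 in cluster 5. Npr2 had its highest means in clusters 4 and 2, at 0.80 and 0.78. The ligand gene Nppc was found in 8.38% of cells.

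On the side of cGMP breakdown and use, the most widely found gene of the phosphodiesterase list was Pde6d, in 36.6% of cells. Its product is a subunit that does not itself break down cGMP. Of the others, Pde10a was found in the most cells, 21.6%. Pde2a was found in 14.3%, Pde3b in 12.5% and Pde1b in 8.99%, all above the 0.762% of Pde5a. Pde2a, whose enzyme is stimulated by cGMP, was at least 1.5-fold higher in cluster 1, at a mean level of 0.10, and lower in cluster 2, at 0.01. Of the kinase genes, Prkg2 was found in 0.762% of cells. Among genes for targets and exporters, Ppp1r12a was found in 64.3%, Abcc5, a cGMP exporter gene, in 61.4% and Vasp, a kinase substrate, in 40.2%, while Mrvi1 and Kcnma1, known from smooth muscle, were found in 1.52% and 2.13%.

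Genes that remove nitric oxide or its adducts were led by Cyb5r3 in 97.6% of cells, Txn1 in 81.2%, Adh5, the S-nitrosoglutathione reductase gene, in 54.4% and Txnrd1 in 48.8%. The 4 haemoglobin genes were each found in at most 1.07%. By cluster, of the 39 genes around the 7, between 1 and 4 were at least 1.5-fold higher in any cluster and between 1 and 9 lower, with the most lower in cluster 6. Over all 9666 genes, 3.21 to 10.6% were higher and 5.52 to 15.4% lower, and cluster 6 likewise had the most lower.

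**Figure D4:**
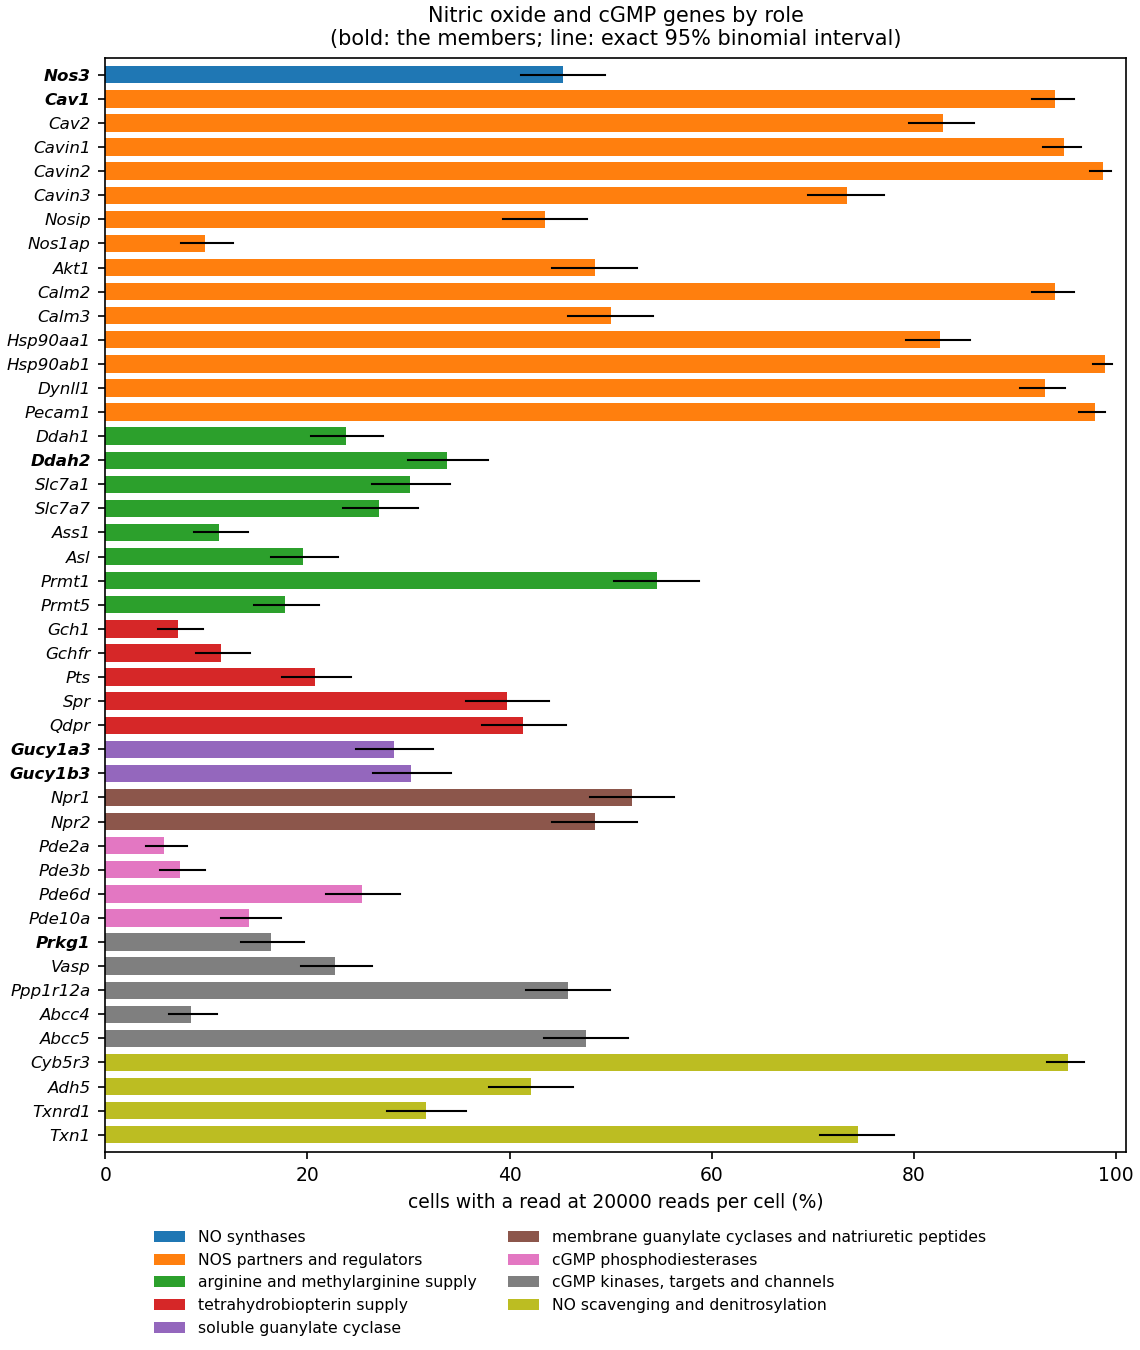
Share of cells with at least 1 read, in percent, at 20000 reads per cell, for 45 nitric oxide and cGMP genes found in at least 10% of all cells, coloured by role, with the 6 members that passed in bold. Black lines are exact 95% binomial intervals. The chaperone gene Hsp90ab1 reaches 98.9%, Nos3 45.2% and the soluble cyclase genes 28.5% and 30.3%. No gene of the phosphodiesterase list exceeds the 25.4% of Pde6d.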

How the data were processed

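Each of 1152 labelled samples was 1 sorted cell, and 656 of them were analysed here. According to the methods, the authors aligned reads to mm10 with STAR, counted them per gene with featureCounts (Subread) and used Seurat 4.1.0; cells with fewer than 2000 detected genes or more than 10% mitochondrial reads were discarded. Reads, not unique molecules, were counted, and the handling of strand and of reads shared between genes is not given in the sources used here. The deposited values were 1 table on the natural log scale, ln(1 + reads per 10000): although log2 is described, only the natural exponential gave sums of 10000 in every cell. Whole reads were recovered for 100% of values above 0, within 0.01 reads.

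A gene was called detected at any read. The 568 cells with enough reads were thinned to 20000 reads without replacement, and coefficients between genes use these (n = 568) unless all cells are named. Exact intervals on shares cover counting error only. Lengths and positions came from GENCODE M21, sequences from RefSeq promoters (GRCm38.p6), in which 6 of the 7 genes had an entry and Nos3 had none. Clustering used Seurat 5.3.0 in R 4.3.3: 2000 variable genes less 11 pathway genes, 15 principal components, regression of total reads, mitochondrial share and dissociation and ribosomal scores, and a resolution of 0.8. That was the lowest to give at least 5 clusters. A cluster was named when at least 3 markers of 1 class were raised, and more than of any other class or cell type list. Folds compared linear means with 0.1 added and a threshold of 1.5. Statistics used Python 3.11.15 and scipy 1.17.1. Doublets were not called, each well having received 1 sorted cell.

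The 7 genes, gene lists and comparisons were chosen with earlier results of these data known. Named genes were the 7, the role lists, the 3 genes most like each, cluster leaders and markers of other cell types. Of those other markers, the fibroblast list had a median detection share of 2.13% and the haematopoietic list 2.13%. The highest shares in these lists were 30.03% for Dcn and 12.8% for Cd68, and 467 cells had no read of any haematopoietic marker. The median was 1.83% for the glial and Schwann list and 0% for the epithelial list. For the blood endothelial list, partly shared with LECs, it was 46.4%. On simulated reads with 200 genes raised 3-fold in cluster 3, over 9666 genes, 99% passed the threshold and 0% of the others did. The other genes were simulated with the same mean in all clusters, so this 0% does not measure false calls in the real clusters. Alternatives covered thresholds, thinning, cell filters, blocks of cell numbers and clustering settings. A listed gene withheld from this text is not reported here.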

Additional observations from a re-analysis of the deposited data

How the results depend on the processing

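All shares and levels describe 1 pool of cells, so nothing here measures differences between mice. The median detection share of the 7 genes was 43.9% over all cells. It was 48.6% in cells with at least 3000 genes, 17.5% with a value above 1 required, 30.3% at 20000 reads and 34.8% at 50000 reads. Joint detection of Gucy1a3 and Gucy1b3, 27.9% of all cells, came to 31.6%, 7.32%, 17.4% and 20.1% under the same settings, and to 23.9% in the cells without a read of any mural gene, Kcnj8 included. Leaving out each block of cell numbers moved the median share between 42.6% and 46.04% and the joint share between 26.9% and 29.3%. The median of the mean levels was 0.38, and 0.64 as the natural log of 1 plus the linear mean or 0.70 from reads summed over cells, where deep cells weigh most (1 cell held 24.7% of Gucy1a3 reads). Leaving out blocks gave 0.36 to 0.39. The lower Nos3 level of cluster 3, a difference of -0.31, fell to -0.12 in blocks 6 to 12, a split chosen after the data were seen. The cluster 3 differences of both cyclase genes and the cluster 1 differences of Nos3 and Cav1 kept their direction throughout. They stayed within 1.5 times their value under all 7 clustering settings, in both sets of blocks and without cells carrying mural reads. Under the clustering settings, cluster 3 was taken as the cluster highest in Fndc1, and cluster 1 as that highest in Stab2. The size of the matched clusters varied. Fndc1 was among the genes most like both cyclase genes, and Stab2 among those most opposite to Cav1. The match thus favoured the direction found for these genes, and its persistence there is no independent test. The rho of Gucy1a3 with Gucy1b3 ran from 0.32 to 0.46 over 8 settings, whereas that of Nos3 with Cav1 went from 0.31 to 0.13 once cluster means were removed. No paired analysis was possible because all cells belonged to 1 group.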
